A study of Mus musculus with 300 samples.

Results

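The 150 liver transcripts described here varied widely between F2 animals although the MRL/MpJ (MRL) and SM/J (SM) strains that founded the cross had nearly equal mean levels. They were chosen from 34406 transcripts by measured values: the MRL and SM means differed by less than 0.3 on the log2 scale in each sex, the male and female F2 means differed by less than 0.5, and the F2 standard deviation (SD) of males over that of females lay between 0.67 and 1.5. The strain limit left 30555 transcripts, the limit on the F2 sex difference 30449 and the limit on the SD ratio 30320. One further transcript inside these limits was left out by the ending of its identifier, and of the other 30319 the 150 with the largest mean of the male and female F2 SD became the members. The last member, ENSMUST00000067161_at, had a mean F2 SD of 0.248836, and the first transcript outside, ENSMUST00000063197_at, had 0.248718, so the members are the top of a continuous distribution. The parental differences, the F2 sex differences and the F2 SDs are therefore descriptions and are given without a test. The files do not pair the transcript identifiers with gene names, so transcripts are named by identifier and no role is given to any of them.

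Livers of 300 mice aged 13 weeks were profiled, 1 animal per Affymetrix Mouse Gene 1.0 ST array. The groups were 282 F2 animals of the MRL/MpJ x SM/J intercross, 135 of them female and the others male, 3 male and 3 female F1 animals of the same cross, 3 male and 3 female MRL animals, and 3 male and 3 female SM animals. The cross was made with SM males, all mice ate a chow diet, and all were housed singly and fasted before the liver was taken. No group received a treatment. The authors computed each value by RMA, on the log2 scale and per Ensembl transcript.

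In an intercross each F2 animal inherits its own mixture of the parental alleles, while F1 animals of an inbred pair are genetically uniform apart from the sex chromosomes and the direction of inheritance. F2 values beyond both parents are called transgressive, and it is a textbook observation that they can occur when equal parents carry alleles of opposite effect at several loci. Transcripts that vary together across animals are described here as covarying blocks.

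All arrays had values on the same scale, 4.66 to 13.60, and the SD of an array over its transcripts ran from 1.18 to 1.33. The highest correlation between any pair of arrays was 0.995. A score of 92 transcripts that separated the sexes was at least 0.476 in the other F2 males and at most -0.61 in the other F2 females, but lay from -0.55 to -0.08 in 5 F2 libraries (4 labelled female, 1 labelled male). The library labelled F1 male 1146 scored -0.94, within the female range. Test counts, SDs and block correlations that hold the F1 library are given with and without it. Without the 5 F2 libraries the rule chose 146 of the 150 members, and the median share outside the parental range and the number of members in blocks are also given without them. The F2 ranges, the skewness counts and the correlations of single pairs include them.

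The F2 SD of the members, the mean of both sexes, had a median of 0.277 (quartiles 0.259 and 0.310, highest 0.720), against a median of 0.107 over all transcripts. The F2 range had a median of 1.58 on the log2 scale in males and 1.62 in females for the members, against 0.60 and 0.56 for all transcripts. Both follow from the rule. Spread among the 18 F1, MRL and SM animals was not used by the rule. The SD within those 6 groups had a median of 0.216 over the members (quartiles 0.181 and 0.275), against 0.0925 over all transcripts, and it exceeded the 95th percentile of all transcripts in 108 of 150 members (72%). In the 6 F1 animals alone the median SD was 0.223 for the members and 0.0927 for all transcripts, and 92 members (61.3%) exceeded the 95th percentile. Without the library labelled F1 male 1146 the medians were 0.203 and 0.0894 in F1 and 79 members (52.7%) exceeded that percentile, and over the other 17 animals the medians were 0.207 and 0.0916 and 104 members (69.3%) exceeded it. The members thus also varied more than most transcripts among animals of 1 strain and sex, in groups of 3.

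The ratio of the F2 SD to the SD within the 18 animals had a median of 1.33 for the members, against 1.16 for all transcripts, and ran from 0.803 to 5.79. In 30 of 150 members (20%) the F2 SD was below that of the 18 animals, against 8359 of all transcripts (24.3%). In 5 members (3.33%) the F2 SD was at least 2 times the other one, against 730 of all transcripts (2.12%). Chosen after their values were seen, the 5 members were ENSMUST00000099391_at with a ratio of 5.79, ENSMUST00000035288_at with 4.50, ENSMUST00000035938_at with 2.67, ENSMUST00000047399_at with 2.60 and ENSMUST00000001008_at with 2.52. For most members the spread between F2 animals was of the same order as that between animals of 1 strain.

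**Figure D1:**
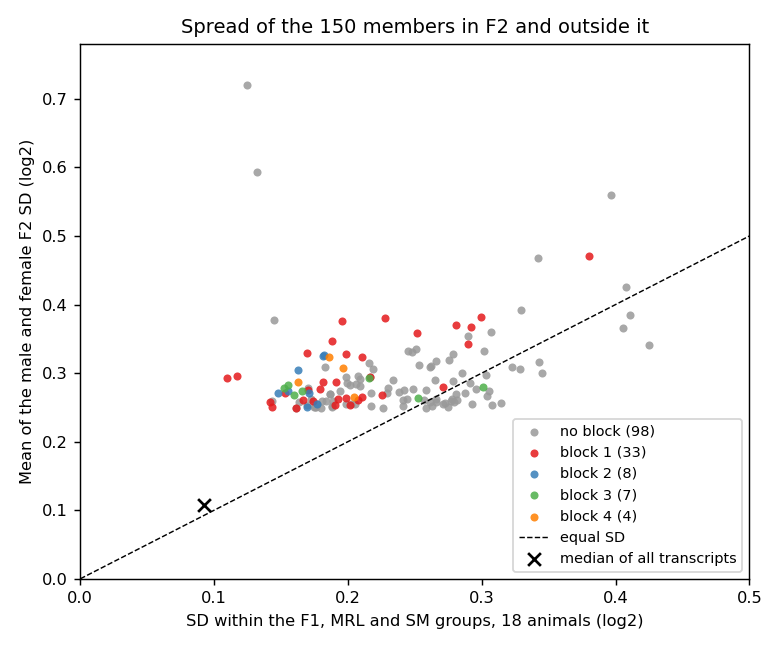
Each point is 1 of the 150 members, with the SD within the F1, MRL and SM groups (18 animals, log2) on the horizontal axis and the mean of the male and female F2 SD (log2) on the vertical axis. Colours mark the 4 covarying blocks and the members in none, the dashed line marks equal SDs and the cross marks the medians of all transcripts. ENSMUST00000099391_at at 0.720 and ENSMUST00000035288_at at 0.593 stand far above the line, while 30 members lie below it.

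The members differed in the shape of their F2 distribution. Skewness, which is positive when a few animals stand far above the rest, was above 1 in both sexes in 34 of 150 members (22.7%), against 372 of all transcripts (1.08%). It was below -0.5 in both sexes in 6 members (4%), against 285 of all transcripts (0.828%). The highest F2 animal stood at least 1 log2 unit above the F2 median in both sexes in 45 members (30%), against 272 of all transcripts (0.791%). A wide reach follows from the rule, which chose the members for a large F2 SD, and skewness comes from the same F2 values, so these counts are descriptions and nothing is read from their contrast with all transcripts. ENSMUST00000035938_at is an example of the upper tail. Its F2 males ran from 6.40 to 8.30 with a median of 6.66, and its F2 females from 6.38 to 8.70 with a median of 6.70. The F1 males had 6.68, 6.75 and 6.79, the MRL males 6.58, 6.56 and 6.67, and the SM males 6.62, 6.97 and 6.53. The F1 females had 6.63, 6.73 and 6.66, the MRL females 6.76, 6.76 and 6.76, and the SM females 6.85, 7.05 and 6.93. Above all 6 parents of their sex stood 17.0% of its F2 males and 7.41% of its F2 females, and below them 9.52% of the males and 63.7% of the females. The upper tail was thus carried by a minority in both sexes, while most F2 females lay below the female parents.

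Transgressive range was counted as the share of F2 animals above the highest or below the lowest of the 6 MRL and SM animals of their sex, averaged over the sexes. The median share was 36.9% over the members (quartiles 29.7% and 44.4%, range 8.16% to 88.6%), against 28.3% over all transcripts. It was 19.4% above and 15.2% below the parents for the members, and 12.1% above and 13.5% below for all transcripts. With only 6 parental animals a sex, a sizable share of F2 animals lies outside the parental range for any transcript. Wide F2 values and close parents, both set by the rule, can themselves raise this share, so the members' shares are descriptions and nothing is read from their distance to all transcripts. By the same choice, most F2 animals were outside the parental range in 24 members (16%), against 1835 of all transcripts (5.33%). Counted by animal, an F2 male had a median of 56 of the 150 members outside the parental range (lowest 32, highest 89), and an F2 female had 57 (lowest 32, highest 88). The F2 male 2007 was highest, with 72 members above and 17 below the parents, and the F2 female 2273 had 66 above and 22 below. Without the 5 F2 libraries named above the median share was 36.6%.

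**Figure D2:**
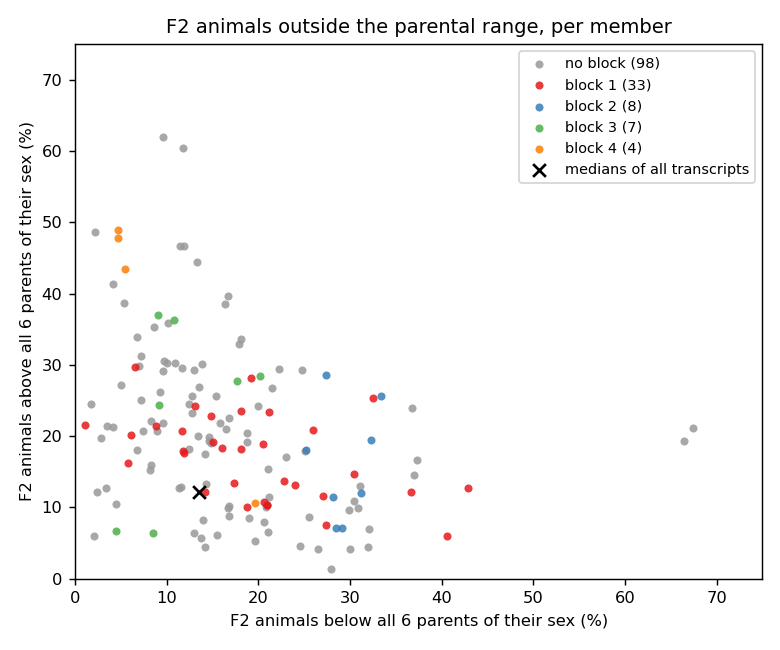
Each point is 1 of the 150 members, with the percentage of F2 animals below all 6 parents of their sex on the horizontal axis and above all 6 on the vertical axis, averaged over the sexes. The cross marks the medians of all transcripts, 13.5% and 12.1%. The points at 67.5% and 66.4% below are ENSMUST00000099391_at and ENSMUST00000035288_at, and 3 of the 4 members of block 4 stand above 40% on the vertical axis.

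The 2 members of largest F2 SD had the clearest transgressive pattern, and it ran downwards. ENSMUST00000099391_at had values of 8.05, 7.96 and 8.16 in F1 males, 8.70, 8.64 and 8.61 in MRL males, and 8.74, 8.56 and 8.46 in SM males. Its values were 8.49, 8.13 and 8.05 in F1 females, 8.60, 8.58 and 8.60 in MRL females, and 8.52, 8.58 and 8.44 in SM females. F2 males ran from 6.47 to 9.12 with a median of 8.03, and F2 females from 6.46 to 9.11 with a median of 8.22. All 3 F1 males lay below all 6 male parents, and 2 of the 3 F1 females lay below all 6 female parents. Among F2 males 108 (73.5%) were below all 6 parents and 13 (8.84%) above them, and among F2 females 83 of 135 (61.5%) were below and 45 (33.3%) above. In bulk liver, fewer cells of a type and less RNA per cell cannot be told apart.

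The F2 values of ENSMUST00000099391_at reached far below those of the F1, MRL and SM animals. The widest step between neighbouring F2 males in the lower part of the distribution, from the 5th to the 50th percentile, lay between 7.44 and 7.67, with 28 males (19.0%) below it. In F2 females it lay between 7.58 and 7.80, again with 28 animals (20.7%) below it. These steps were looked for after the values were seen, and a widest step is found in any set of values. In F2 females another step, between 7.25 and 7.47, was nearly as wide. The low animals are therefore a description. The low animals had a median of 6.65 in males and 6.73 in females, which is 3.91-fold and 3.54-fold below the mean of the parents of that sex. No F1, MRL or SM animal was below either step. The low animals came from 13 of the 13 hybridisation batches that held at least 5 F2 males and from 11 of the 13 that held at least 5 F2 females. The correlation of the transcript with the SD of the array was -0.01 in F2 males and 0.05 in F2 females.

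ENSMUST00000035288_at showed the same animals. Its values were 8.01, 7.93 and 8.34 in F1 males, 8.65, 8.62 and 8.61 in MRL males, and 8.55, 8.35 and 8.37 in SM males. In females they were 8.49, 8.20 and 8.13 in F1, 8.57, 8.56 and 8.57 in MRL, and 8.37, 8.50 and 8.35 in SM. The F1 males were all below the male parents, the highest of them, the library labelled F1 male 1146, by a narrow margin, while the F1 females overlapped the female parents. The widest low step left 27 F2 males (18.4%) and 26 F2 females (19.3%) below it, and all 27 and all 26 were among the low animals of ENSMUST00000099391_at. Across animals the pair correlated at r = 0.990 in F2 males (rho = 0.987) and r = 0.989 in F2 females (rho = 0.987, n = 135). ENSMUST00000099391_at also correlated with the left-out transcript ENSMUST00000099390_at at 0.958 in males and 0.970 in females. Whether these identifiers share probes or a gene was not tested, so the pair is counted as 1 pattern. Beyond them, 9 of all transcripts correlated with ENSMUST00000099391_at above 0.5 in both sexes and 5 below -0.5, and none of these was a member. The nearest were ENSMUST00000047711_at, at 0.685 in males and 0.546 in females, and ENSMUST00000099320_at, at 0.647 and 0.583. The most negative were ENSMUST00000020249_at, at -0.58 and -0.56, and ENSMUST00000020234_at, at -0.59 and -0.52.

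**Figure D3:**
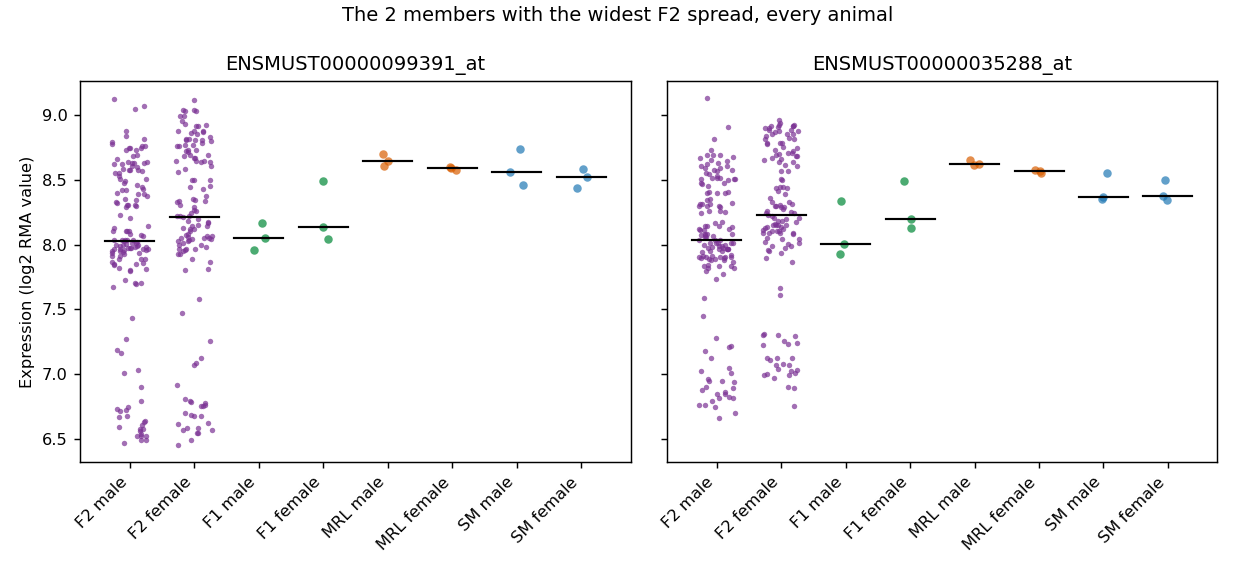
Every animal's log2 RMA value of the 2 members with the widest F2 spread, by group, with a line at each group's median and points shifted sideways for visibility. In both panels the F2 animals below the widest step, 28 males and 28 females on the left and 27 and 26 on the right, lie where no F1, MRL or SM animal lies. A widest step is found in any set of values.

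F1 animals were not used by the rule, so their level against the parents could be tested. F1 minus the mean of MRL and SM, with the sexes weighted equally, passed an adjusted p of 0.05 (limma, Benjamini-Hochberg over all transcripts) in 2 of 150 members (1.33%), against a background of 0.0378% of all transcripts, which is 13 of 34406. One member was higher in F1 (background 0.0203%) and 1 lower (background 0.0174%). ENSMUST00000047399_at rose in F1 by 0.54 ± 0.065 (SE, log2), with an adjusted p of 0.00176 by limma. It had 7.58, 7.30 and 7.27 in F1 males, 7.11, 7.01 and 7.03 in MRL males, and 7.00, 6.95 and 6.87 in SM males. It had 7.46, 7.15 and 7.28 in F1 females, 6.66, 6.84 and 6.67 in MRL females, and 6.29, 6.44 and 6.75 in SM females. The F1 animals did not overlap the parents in either sex. Its F2 animals were also mostly higher, with 57.1% of males and 66.7% of females above all 6 parents of their sex.

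ENSMUST00000099391_at fell in F1 by 0.45 ± 0.057 (SE, log2), with an adjusted p of 0.00277 by limma. With batch as a fixed term its difference was -0.28 and the adjusted p 0.151, so the call ended there, while ENSMUST00000047399_at kept its call at 0.72 and an adjusted p of 0.00698. Only 3 batches held both F1 and parental animals, and there the F1 animal and the parents were of opposite sex by their labels. Within batches 2, 3 and 11, F1 minus parents was -0.12, -0.47 and -0.43 for ENSMUST00000099391_at and 0.47, 1.29 and 0.60 for ENSMUST00000047399_at. Without the library labelled F1 male 1146 the adjusted p values by limma were 0.00261 and 0.00201. ENSMUST00000035288_at, which differed by -0.32 ± 0.060 (SE), missed the threshold with an adjusted p of 0.0784 by limma, and without that library it passed with 0.00508. Without that library 3 of 150 members passed, against 0.0581% of all transcripts. With all 18 animals, only ENSMUST00000047399_at and ENSMUST00000099391_at passed. An unadjusted p under 0.05 by limma was found in 18 of the 150, and in 3264 of all 34406 transcripts. The median difference was 0.01 over the members and -0.01 over all transcripts.

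By sex, F1 minus parents passed in 1 member in males (background 0.0262%), which was lower in F1 (background 0.0174% lower and 0.00872% higher). In females it passed in 6 (background 2.78%), of which 4 were higher (background 1.36%) and 2 lower in F1 (background 1.42%). The 6 included 3 of the 4 members of the fourth covarying block, described below, whose median difference in F1 females was 0.44. The test of the difference between the sexes passed in 2 members (1.33%, background 0.323%), neither of them in a block, with 1 difference positive (background 0.183%) and 1 negative (background 0.14%). ENSMUST00000051437_at had 5.95, 5.87 and 6.28 in F1 males against 6.31 to 6.68 in the 6 male parents, and 6.57, 6.87 and 6.94 in F1 females against 6.10 to 6.84 in the 6 female parents. Its F1 minus parents difference was thus lower in males than in females, by -0.91 ± 0.18 (SE, adjusted p = 0.0464 by limma). ENSMUST00000116179_at had 8.28, 8.83 and 8.29 in F1 males against 8.00 to 8.52 in male parents, and 8.03, 7.63 and 7.70 in F1 females against 8.20 to 8.53 in female parents. Here the difference ran the other way, at 0.81 ± 0.17 (SE, adjusted p = 0.0492 by limma). Both calls were lost on leaving out any of 14 of the 18 animals in turn, and without the library labelled F1 male 1146 the adjusted p values were 0.0361 and 0.0435. Without that library 2 members passed in males (background 0.0145%), 9 in females (background 4.21%) and 7 in the difference between the sexes (background 2.69%).

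The mean of F2 minus the mean of MRL and SM, with batch as a term, passed in 0 of 150 members by limma. The background was 0.235% of all transcripts (0.14% higher and 0.0959% lower in F2). An unadjusted p under 0.05 by limma was found in 15 members, and in 4105 of all 34406 transcripts. Without SM female 2 the count of members past the adjusted threshold was 1. ENSMUST00000099391_at differed by -0.51 ± 0.21 (SE, adjusted p = 0.321) and ENSMUST00000035288_at by -0.40 ± 0.17 (SE, adjusted p = 0.343), both by limma. The median difference was 0.06 over the members and -0.01 over all transcripts.

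The members fell into few covarying blocks. After batch means were removed within each sex, blocks were formed in F2 females as sets of at least 4 members joined at a mean correlation of 0.5, and then described in F2 males, which had no part in forming them. This gave 4 blocks with 33, 8, 7 and 4 members, 52 in all, while 98 members were in none: 35 in 16 groups of 2 or 3 and 63 alone. The number of blocks depended on the setting: it was 2 with Spearman correlation or with the tree at a mean correlation of 0.6, and 4 to 6 under the others tried. Of 11175 pairs, the 5th, 50th and 95th percentiles of r were -0.23, 0.02 and 0.568 in males and -0.23, 0.03 and 0.529 in females. The r values of the sexes correlated at 0.834 across these pairs. Pairs share members and animals, so this value is a description. In 23 pairs, holding 40 members, r exceeded 0.95 in both sexes. Whether such rows are transcripts measured by the same probes was not tested. Counting each such set once leaves 129 distinct members, and 27, 6, 4 and 3 in the blocks.

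**Figure D4:**
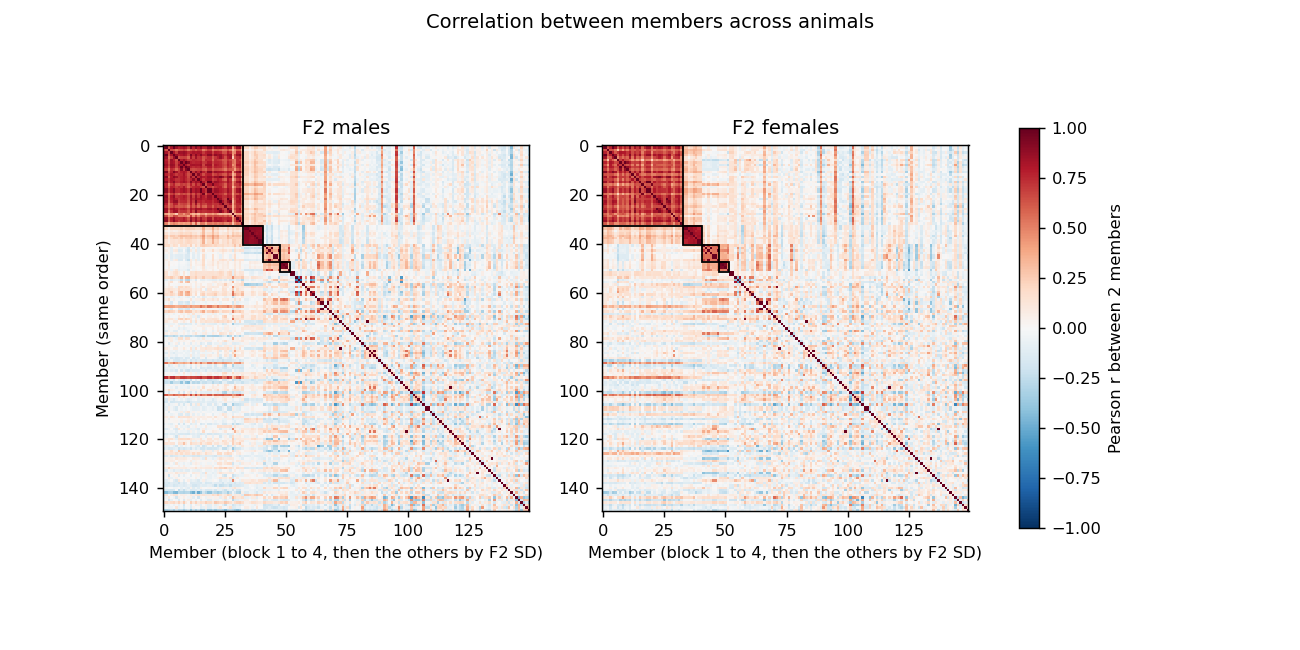
Pearson r between each pair of the 150 members across F2 males (left) and F2 females (right, n = 135), with batch means removed, members in the same order in both panels and the 4 blocks, formed in females, outlined. Block 1 with 33 members fills the upper left corner in both sexes, block 2 with 8 follows, and the area outside the blocks is mostly near 0.

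Block 1, with 33 members, had a mean r within the block of 0.715 in F2 males and 0.668 in F2 females, and 0.633 among the 18 F1, MRL and SM animals (0.642 without the library labelled F1 male 1146). Skewness was above 1 in both sexes in 26 of its 33 members. Its mean level per animal ran from 6.96 to 8.66 in F2 males with a median of 7.23, and from 7.07 to 9.03 in F2 females with a median of 7.40. It stood more than 0.5 above the median in 16 F2 males and 3 F2 females and more than 0.5 below it in none of them. In males the F1 animals ran from 7.00 to 7.45 (to 7.31 without that library) and the parents from 7.08 to 7.56, and in females the F1 animals ran from 7.36 to 7.59 and the parents from 7.28 to 7.63. The members thus shared an upper tail in a small number of F2 animals. Leaving out the 2 animals farthest from the median gave a mean r of 0.668 in F2 males and 0.543 in F2 females. Other animals of the tail stayed in, and how far the members varied together without them was not tested. The mean of the block correlated with the SD of the array at 0.131 in males and 0.352 in females. Outside the members, 178 of all transcripts correlated with it above 0.7 in both sexes.

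The hub of block 1, the member with the highest mean correlation with the rest in F2 females, was ENSMUST00000015667_at. It ran from 7.68 to 10.27 in F2 males with a median of 8.29, and from 7.92 to 10.55 in F2 females with a median of 8.54. Across F2 males it correlated with its closest member, ENSMUST00000116304_at, at r = 0.999 (rho = 0.997), and with its least close, ENSMUST00000106493_at, at r = 0.743 (rho = 0.579). For both pairs the permutation p was 1e-05, the smallest that 100000 permutations can give, and 1.3e-05 adjusted over the 9 pairs tested. The first pair had r = 0.999 in F2 females as well and is near-identical, so its small p was bound to result. Leaving out the 2 males farthest from the median of the hub gave 0.999 and 0.680. The male with the highest mean of block 1 was 2015, at 8.66, and the female was 2273, at 9.03.

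Block 2, with 8 members, had the highest mean r of the 4 blocks in F2 animals, 0.903 in males and 0.833 in females. Among the 18 other animals its mean r was 0.725, and 0.594 without the library labelled F1 male 1146, below that of block 4. Skewness was below 0 in both sexes in all 8 members, so its tail pointed down. The block mean ran from 7.11 to 8.30 in F2 males with a median of 7.86, and from 7.26 to 8.73 in F2 females with a median of 8.06. In 24 F2 males and 9 F2 females it was more than 0.5 below the median, and only 1 F2 animal, the female 2273, was more than 0.5 above it. Below all 6 parents of their sex were 45 F2 males and 41 F2 females, and above them 15 and 21. In F1 females the block mean was 8.24 to 8.33, above the female parents at 7.93 to 8.21. In the library labelled F1 male 1146 it was 8.19, and the other F1 males had 7.75 and 7.75. The hub, ENSMUST00000012281_at, correlated across F2 males with ENSMUST00000110217_at at r = 0.912 (rho = 0.888) and with the least close member, ENSMUST00000100827_at, at r = 0.882 (rho = 0.877). Both permutation p values were 1e-05, again the smallest possible, and without the 2 farthest males r was 0.904 and 0.876. Outside the members, 50 of all transcripts correlated with the block mean above 0.7 in both sexes. Its correlation with the SD of the array was 0.060 in males and 0.315 in females.

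Block 3, with 7 members of which 4 are distinct, held together less well in the sex not used to form it. Mean r was 0.458 in F2 males and 0.622 in F2 females, and 0.370 in males and 0.561 in females without the near-identical pairs. In 4 of its 7 members skewness was above 1 in both sexes. The block mean ran from 7.71 to 8.81 in F2 males and from 7.78 to 9.58 in F2 females, with medians of 8.06 and 8.04. The F2 females 2229 at 9.58 and 2239 at 9.01 stood highest. Without the 2 farthest animals mean r was 0.437 in males and 0.478 in females. The hub, ENSMUST00000055738_at, correlated across F2 males with ENSMUST00000112995_at at r = 0.972 (rho = 0.957) and with ENSMUST00000087211_at at r = 0.513 (rho = 0.413), each with a permutation p of 1e-05, the smallest possible. Without the 2 farthest males these were 0.967 and 0.450. The first pair had r = 0.971 in F2 females and is near-identical, so its small p was bound to result. The mean of block 3 correlated with the SD of the array at 0.347 in males and 0.260 in females.

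Block 4, with 4 members of which 3 are distinct, had a mean r of 0.607 in F2 males, 0.738 in F2 females and 0.831 among the 18 other animals (0.821 without the library labelled F1 male 1146). Its mean ran from 6.45 to 7.48 in F2 males with a median of 6.89, and from 6.44 to 8.00 in F2 females with a median of 6.96. Most of its transgressive animals were high: 65 F2 males were above all 6 male parents and 2 below, and 38 F2 females were above and 14 below. F1 females ran from 6.99 to 7.37 and female parents from 6.63 to 7.12, while F1 males ran from 6.51 to 6.78 (to 6.66 without that library) and male parents from 6.51 to 6.94. The hub, ENSMUST00000034861_at, correlated across F2 males with ENSMUST00000080140_at at r = 0.958 (rho = 0.952, permutation p = 1e-05, the smallest possible). With the least close member, ENSMUST00000023849_at, it correlated at r = 0.284 (rho = 0.278), with permutation p values of 0.00045 and 0.00076, or 0.00051 and 0.00085 adjusted, and without the 2 farthest males r was 0.954 and 0.316. In F2 females the second pair had r = 0.541, and the difference between the sexes was not tested. The first pair had r = 0.968 there and is near-identical, so its small p was bound to result.

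Blocks 3 and 4 were also related, with a mean r between their members of 0.332 in F2 males and 0.40 in F2 females, and the F2 female 2229 had the highest mean of both. Between blocks 1 and 2 it was 0.196 in males and 0.239 in females, and the F2 female 2273 had the highest mean of both. Blocks 1 and 3 had a mean r of 0.026 in F2 males and 0.022 in F2 females, but 0.338 among the 18 other animals. Blocks 1 and 4 had 0.032 and 0.039 in F2, and 0.376 among the 18 animals. Without the library labelled F1 male 1146 the values among the other 17 animals were 0.342 and 0.336. The hubs of blocks 1 and 3 correlated at r = 0.066 in F2 males (rho = 0.104, permutation p = 0.42 and 0.21), and at 0.122 without the 2 farthest males. Strong opposition was rare: 20 of 11175 pairs had r under -0.4 in both sexes.

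Forming the blocks in F2 males instead gave 6 blocks with 62 members, of which 47 were also in a block formed in females. Block 1 shared 31 members with a male block, 93.9% of each since both held 33, and block 2 shared all 8. Of the 7 members of block 3, 4 (57.1%) were in a male block of 5, and of the 4 members of block 4, 3 (75%) were in another male block of 5. Without the 5 F2 libraries named above, 52 members were in 4 blocks.

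**Figure D5:**
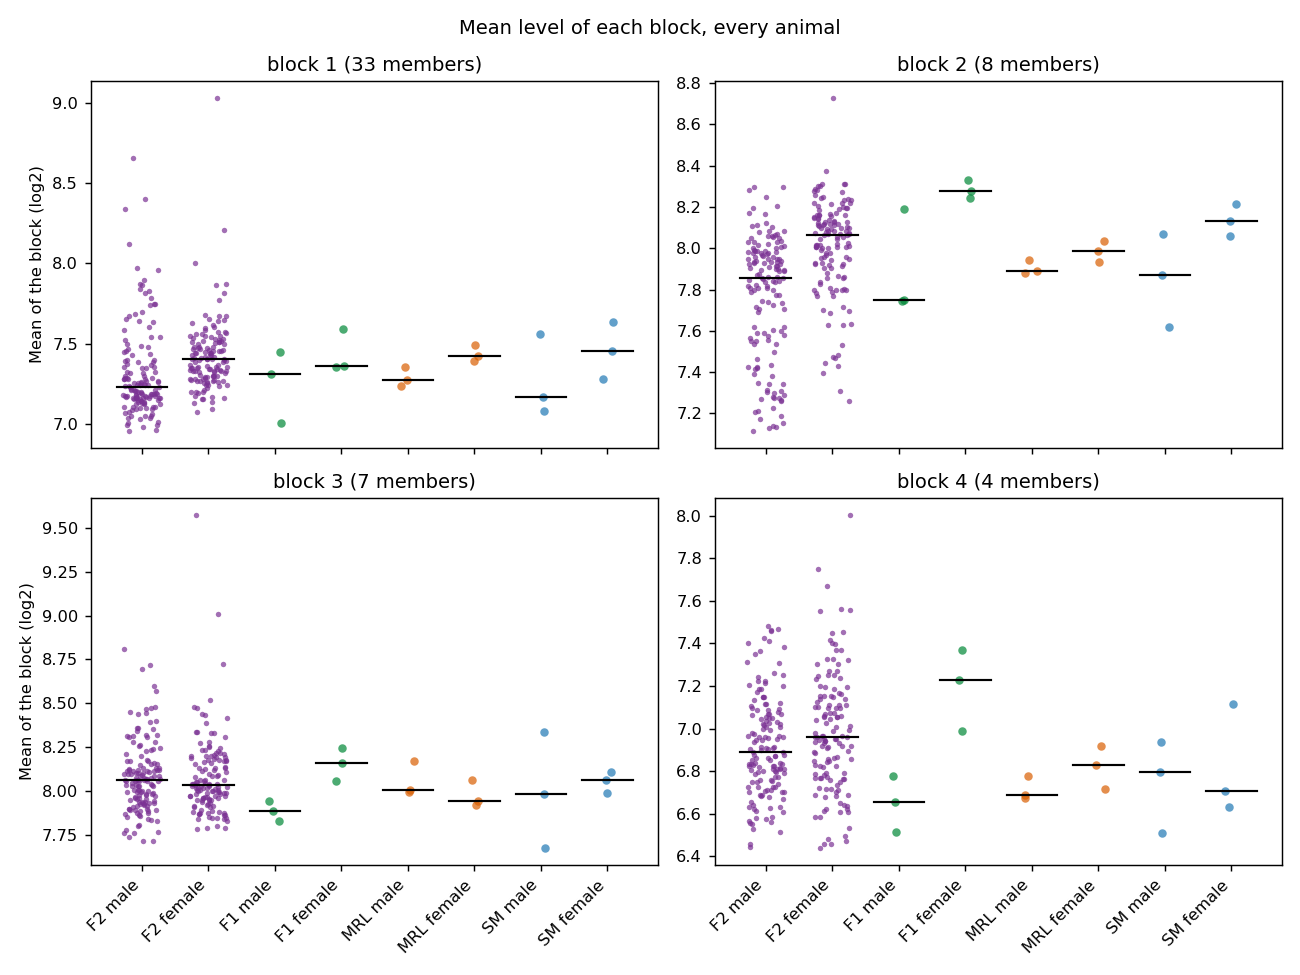
Mean log2 value of the members of each block in every animal, by group, with a line at each group's median and points shifted sideways for visibility. Block 1 has an upper tail that reaches 8.66 in F2 males and 9.03 in F2 females, block 2 a lower tail that reaches 7.11 and 7.26, and in block 4 F2 animals reach 7.48 and 8.00, with the highest male parent at 6.94 and the highest female parent at 7.12.

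The rule limited the sex difference in F2 but not in other animals. Among the 18 F1, MRL and SM animals, male minus female passed in 34 of 150 members (22.7%), against 9.04% of all transcripts. Of these, 11 were higher in males (7.33%, background 4.94%) and 23 lower (15.3%, background 4.1%). The same direction was seen in F2 for 31 of the 34, with a median size of 0.287 outside F2 and 0.213 in F2. By block, 9 of the 33 members of block 1 were lower in males and 1 higher, 6 of the 8 members of block 2 were lower, 2 of the 7 members of block 3 were higher and 2 lower, and 1 of the 4 members of block 4 was lower. Among the 98 members in no block, 8 were higher and 5 lower. The median difference was -0.09 over the members and 0.01 over all transcripts.

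ENSMUST00000075469_at fell in males by 0.47 ± 0.098 (SE, adjusted p = 0.00508 by limma). It had 9.65, 9.56 and 10.39 in F1 males against 10.63, 10.43 and 10.38 in F1 females, the highest of the males being the library labelled F1 male 1146. MRL males had 10.00, 9.74 and 9.89 against 9.84, 10.33 and 10.24 in MRL females, and SM males had 9.59, 9.98 and 9.63 against 10.28, 10.29 and 10.20 in SM females. The sexes did not overlap in SM and overlapped in MRL and F1. Without that library the difference was -0.55. ENSMUST00000045173_at fell by 0.29 ± 0.062 (SE, adjusted p = 0.0056 by limma), and ENSMUST00000047399_at and ENSMUST00000112587_at were higher in males by 0.29 ± 0.061 and 0.28 ± 0.060 (SE, adjusted p = 0.00578 and 0.00566 by limma). With batch as a fixed term 18 members passed, and ENSMUST00000112587_at and ENSMUST00000045173_at were no longer called, with adjusted p values of 0.2 and 0.149. Within batches 2, 3, 7 and 11, which mix strains, male minus female was -0.76, -0.63, -0.68 and 0.16 for ENSMUST00000075469_at and -0.47, 1.29, 0.23 and 0.60 for ENSMUST00000047399_at, and the male of batch 11 was the library labelled F1 male 1146. For ENSMUST00000045173_at these values were -0.51, -0.45, -0.17 and 0.19, and for ENSMUST00000112587_at 0.43, 0.15, 0.01 and 0.07. The count without the library labelled F1 male 1146 was 44, and the share of all transcripts rose as well, from 9.04% to 10.8%. Leaving out 1 of several other animals lowered the count of 34 by more than 1.5 times: 15 without F1 male 1151, 17 without MRL female 1, 19 without MRL male 8, 21 without MRL male 6, SM male 6 or MRL female 3, and 22 without MRL female 2. The shares of all transcripts in these fits are not given, so nothing is read about the members from these changes.

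Properties of the arrays moved with many members, as with many other transcripts. The hybridisation batch of the F2 animals passed in 55 of 150 members (36.7%, limma F-test with sex as a term), against 51.7% of all transcripts. Batch took a median of 2.54% of the F2 variance of a member and at most 24.3%, against a median of 4.41% over all transcripts. ENSMUST00000101544_at had the highest F value, 8.06, and ENSMUST00000081668_at followed at 6.07. With the SD of the array as a covariate 21 members passed. The share of all transcripts in that fit is not given, so nothing is read about the members from the lower count. The slope on the SD of the array passed in 118 members (78.7%), against 86.1% of all transcripts. It was positive in 95 (63.3%, background 40.9%) and negative in 23 (15.3%, background 45.3%). The members also had a higher mean level, with a median of 7.36 against 6.76 over all transcripts. The part of level in the direction of these slopes was not tested. Those with the smallest adjusted p in each direction were ENSMUST00000096583_at and ENSMUST00000108924_at, at 7.41 and 6.46 log2 units per unit of array SD, and ENSMUST00000099076_at and ENSMUST00000116179_at, at -8.58 and -8.03. In ENSMUST00000116179_at, which also differed between the sexes in F1 minus parents, the share of the array in that difference was not tested. All 7 members of block 3 and 26 of the 33 members of block 1 had a positive slope past the threshold.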

How the data were processed

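Total RNA of single livers was hybridised to 1 array per animal. Per the submitters' processing notes, the authors used RMA from affy with R 2.11, and the deposited table holds its log2 expression value for each Ensembl transcript. The genome build and the release of Ensembl are not given in the sources used. RMA normalizes all arrays together, so a transcript's level is relative to the other arrays, and no depth applies.

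None of the 34406 identifiers was found in the gene table used (0 matched), so planned gene lists and cell type markers were not applied, and no sequence is shown. Named were the 2 members of largest F2 SD, those beside the rank limit, the hub, closest and least close member of each block, and at most 2 members in each direction of a test by adjusted p. Named outside this rule were the members of largest SD ratio, chosen after their values were seen. So were the left-out ENSMUST00000099390_at and the transcripts that correlated most with ENSMUST00000099391_at in either direction. The members, lists and tests were chosen with earlier results of these data known.

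Tests used lmFit and eBayes of limma 3.58.1 (R 4.3.3), with one mean per group, and Benjamini-Hochberg adjustment over all 34406 transcripts at 0.05. The F1 and sex comparisons used the 18 F1, MRL and SM animals, F2 minus parents all 300 animals with batch, and the batch and array SD tests the 282 F2 animals. The labels give 14 batches of 2 to 25 arrays. Correlations, average-linkage blocks and 100000 two-sided permutations were computed with numpy 2.4.6, scipy 1.17.1 and pandas 2.3.3, and figures with matplotlib 3.10.9. The fits were tested on simulated data. Alternatives changed normalization, centring, dim transcripts, variance model, batch, array SD, doubtful libraries and single animals. The number of arrays limits the precision.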

Additional observations from a re-analysis of the deposited data

Results flagged for a closer look

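ENSMUST00000051437_at differed between the sexes in F1 minus parents, with an interaction (male minus female) of -0.91 ± 0.18 (SE, adjusted p = 0.0464 by limma). Leaving out each of the 18 animals in turn gave -1.03 to -0.82, with the direction kept and the call lost in 14 of 18. ENSMUST00000116179_at differed in the opposite direction, with an interaction of 0.81 ± 0.17 (SE, adjusted p = 0.0492 by limma), 0.63 to 0.93 on leaving out each animal, and the call again lost in 14 of 18. Its slope on the SD of the array in F2 was -8.03, and the part of the array in the interaction was not tested. The interaction was called in 0.323% of all transcripts.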

How the results depend on the processing

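The count of members past the threshold in F1 minus parents was 2. A fixed batch term gave 1, and ENSMUST00000099391_at there had -0.28 in place of -0.45. It was 2 or 3 under the other alternatives and on leaving out each animal. For the sex difference outside F2 the count was 34, 18 with the fixed batch term, 24 to 45 otherwise, and 15 to 44 on leaving out each animal. F2 minus parents gave 0, and 0 to 1 on leaving out each of the MRL and SM animals. Batch in F2 gave 55, and 21 with array SD as a covariate. Members in covarying blocks numbered 52, 33 with Spearman correlation and 34 with the tree at a mean correlation of 0.6. The cause of these changes was not tested. The shares of all transcripts under the changed settings are not given here, so the changed counts are not read as a property of the members. No value reversed. With the animal number as a replicate block, 2 members passed in F1 minus parents and 31 in the sex difference, and the named calls there stayed on their side of the threshold; same-numbered MRL and SM animals had deviations that correlated from -0.08 to 0.22, so the numbers do not pair them. The median share of F2 animals outside the parental range was 36.02% to 37.6% under the alternatives and 37.4% to 40.99% on leaving out each parent, and the median SD of the 18 animals 0.207 to 0.224. In alternatives chosen after seeing the data, the rule kept 124 members with batch effects subtracted, 146 without the doubtful F2 libraries and 124 with quantile normalization. With 3 animals a group, parental ranges are narrow samples, and 18 animals in few shared batches leave batch and group partly inseparable.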
